A study of Mus musculus with 6 samples.

Results

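The circadian clock genes Arntl, Clock, Npas2, Per1, Per2, Per3, Cry1, Ciart, Dbp and Tef were followed in whole mouse kidneys with and without Notch1 activation in the tubule. These 10 genes were listed by name. Each was represented by the probe set that carried its symbol alone and had the highest mean over all 6 arrays. Of the 10, 9 were measured among 19937 genes, and Npas2 was not analysed here. Total RNA came from whole kidneys of 3 NICD1 mice and 3 control mice, 1 Affymetrix array per sample. NICD1 mice had the genotype Pax8rtTA TREICNotch1, which lets an inducible Notch1 intracellular domain, the active part of the receptor, be made in tubule epithelial cells. Control mice were wild-type littermates with a genotype labelled normal. The Pax8 promoter is active along the tubule and not in every kidney cell, so RNA from cells in which it is silent is part of every NICD1 sample. The inducer, its dose and duration, and the age, sex and hour of collection of the mice are not given in the sources used here. The replicates are labelled as separate samples, and nothing says whether pairs of them were collected together, so the p-values measure the spread between these samples.

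The molecular clock is a feedback loop that runs in nearly every cell. BMAL1, the product of Arntl, pairs with CLOCK or NPAS2 and switches on genes through E-boxes, among them the Per and Cry genes, whose products then repress the pair. A second loop runs through the REV-ERB and ROR receptors, which repress or activate Arntl, and the output factors DBP, TEF and HLF bind D-boxes in many metabolic and transport genes. In the kidneys of night-active mice, Arntl, Clock and Npas2 transcripts are highest around the start of the light phase (called morning phase genes here). Per1, Per2, Per3, Ciart, Dbp and Tef are highest towards or after the start of the dark phase (evening phase genes). Cry1 peaks later in the night and was kept apart.

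Short stretches of the promoters of 4 of these genes are shown because they hold letters that clock factors are known to recognise. They come from RefSeq, build GRCm38.p6. For Ciart, Tef and Per3 the 250 bases before an annotated start are given, and for Arntl 30 bases just after an annotated start. Capitals mark E-boxes (CACGTG) in Ciart and Tef, D-boxes (TTATGTAA) in Per3 and a ROR element (AAAGT followed directly by AGGTCA) in Arntl. The stretches lie at chr3:95882229-95882478, minus strand (Ciart), chr15:81802423-81802672, plus strand (Tef), chr4:151044666-151044915, minus strand (Per3) and chr7:113207527-113207556, plus strand (Arntl).
Ciart: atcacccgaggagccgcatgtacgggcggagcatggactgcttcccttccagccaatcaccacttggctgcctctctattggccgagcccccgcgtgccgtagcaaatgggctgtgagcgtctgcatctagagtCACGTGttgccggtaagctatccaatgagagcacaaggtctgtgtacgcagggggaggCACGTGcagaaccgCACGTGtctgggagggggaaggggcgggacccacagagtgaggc
Tef: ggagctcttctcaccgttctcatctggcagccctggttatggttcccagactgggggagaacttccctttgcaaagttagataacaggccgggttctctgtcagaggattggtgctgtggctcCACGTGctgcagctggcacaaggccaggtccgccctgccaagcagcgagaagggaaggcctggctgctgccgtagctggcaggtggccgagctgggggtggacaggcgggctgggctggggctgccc
Per3: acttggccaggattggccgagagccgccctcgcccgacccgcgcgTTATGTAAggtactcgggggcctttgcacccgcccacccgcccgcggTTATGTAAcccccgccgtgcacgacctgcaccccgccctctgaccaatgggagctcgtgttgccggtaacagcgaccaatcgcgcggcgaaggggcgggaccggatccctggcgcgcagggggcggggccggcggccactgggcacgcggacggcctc
Arntl: gggaaggcagAAAGTAGGTCAgggacggag
All windows of the table hold 300 bases, 250 before a start and 50 after it, and both strands were searched. Ciart held 3 E-boxes, at positions -116, -58 and -44 from the start. E-boxes were found in 4 of the 9 members present in the table (Cry1, Per1, Ciart and Tef), and 7.15% of all 32851 windows hold 1 or more. Some genes have several windows. The variant CACGTT was found in Cry1 alone among the members, against 4.68% of all windows. The D-box TTATGTAA was found in Per3 alone, at -205 and -158, against 0.938% of windows, and the D-box variant TTATGCAA in Per1 alone, against 0.743%. The ROR element was found in Arntl alone, against 0.0213% of windows. With the G of AAAGT left free it was again found in Arntl alone, against 0.0578%. Its core AGGTCA, which overlaps every such element, was found in Arntl, Clock and Per1 and in 16.3% of windows. In the 1 window of Dbp none of these letters were found, and Per2 had no entry. These are matches of letters, and binding was not measured.

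Notch1, whose active domain the transgene encodes, averaged 10.19 ± 0.18 in NICD1 kidneys and 6.56 ± 0.11 in controls on the log2 scale (SD, n = 3 each), with every NICD1 array above every control array. Whether its single probe set reads the transgene, the mouse's own gene or both was not tested. Correlations of arrays over probe sets were 0.986 to 0.990 within NICD1, 0.991 to 0.993 within controls and 0.927 to 0.945 between the groups. Of 3 thick limb markers, Umod was higher in NICD1 (12.3 to 12.5, against 12.0 to 12.2 in controls), Slc12a1 was lower (7.49 to 8.21, against 10.35 to 10.61 in controls) and Cldn16 did not pass (-0.39 log2). All 8 proximal tubule markers were lower in NICD1, with a mean log2 level of the list of 6.43 to 7.46 in NICD1 arrays and 10.67 to 10.75 in control arrays. Higher in NICD1 were 5 of 6 macrophage markers (list mean 6.91 to 7.73 in NICD1 and 4.99 to 5.27 in controls). So were 4 of 5 fibroblast markers (7.89 to 8.77 and 6.91 to 7.18) and all 5 markers of cycling cells (7.14 to 7.62 and 4.18 to 4.43). The macrophage marker Csf1r (-0.049 log2) and the fibroblast marker Dcn (-0.77 log2) did not pass. Over all genes, 17.8% were higher and 14.9% lower by the test given below. The part of these markers in the differences of clock genes was not tested. In whole tissue, fewer cells of a type and less RNA per cell cannot be told apart.

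Control replicate 1 stood apart from the other control arrays in the clock genes. Its distance from the mean of the other 2 had a median of 0.74 log2 over the 9 members and 0.13 over all genes. It was the array left out of the closest pair of controls for 7 of 9 members, against 40.6% of all genes. Within NICD1, replicate 3 was likewise the array left out of the closest pair for 7 of 9 members, against 38.0% of all genes, with a median distance from the mean of the other 2 of 0.34 log2 over the members and 0.15 over all genes. The differences of clock, glucocorticoid and handling genes that moved by over 1.5 times or changed their call without control replicate 1 are given with and without it. Without it the differences of 3 members described below were 0.56 log2 for Clock, -2.16 log2 for Ciart and -1.09 log2 for Tef, and all 5 calls among the members were kept. Without NICD1 replicate 3 they were kept too, with differences from -1.82 log2 (Ciart) to 1.10 log2 (Arntl).

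The morning phase genes Arntl and Clock were higher in NICD1 kidneys, and the evening phase genes Ciart, Dbp and Tef were lower. Per1, Per2, Per3 and Cry1 did not pass the test, which was limma's moderated test over all 19937 genes with Benjamini-Hochberg adjustment and a threshold of 0.05. Of the 9 measured members 2 were thus called higher and 3 lower, together 55.6%, against 32.7% of all genes called in either direction (17.8% higher and 14.9% lower). The median difference was 0.71 log2 over the 2 morning phase genes and -0.75 log2 over the 6 evening phase genes, with 0.015 log2 over all genes. The arrays of the groups did not overlap for the same 5 members, and did not overlap for 43.4% of all genes.

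**Figure D1:**
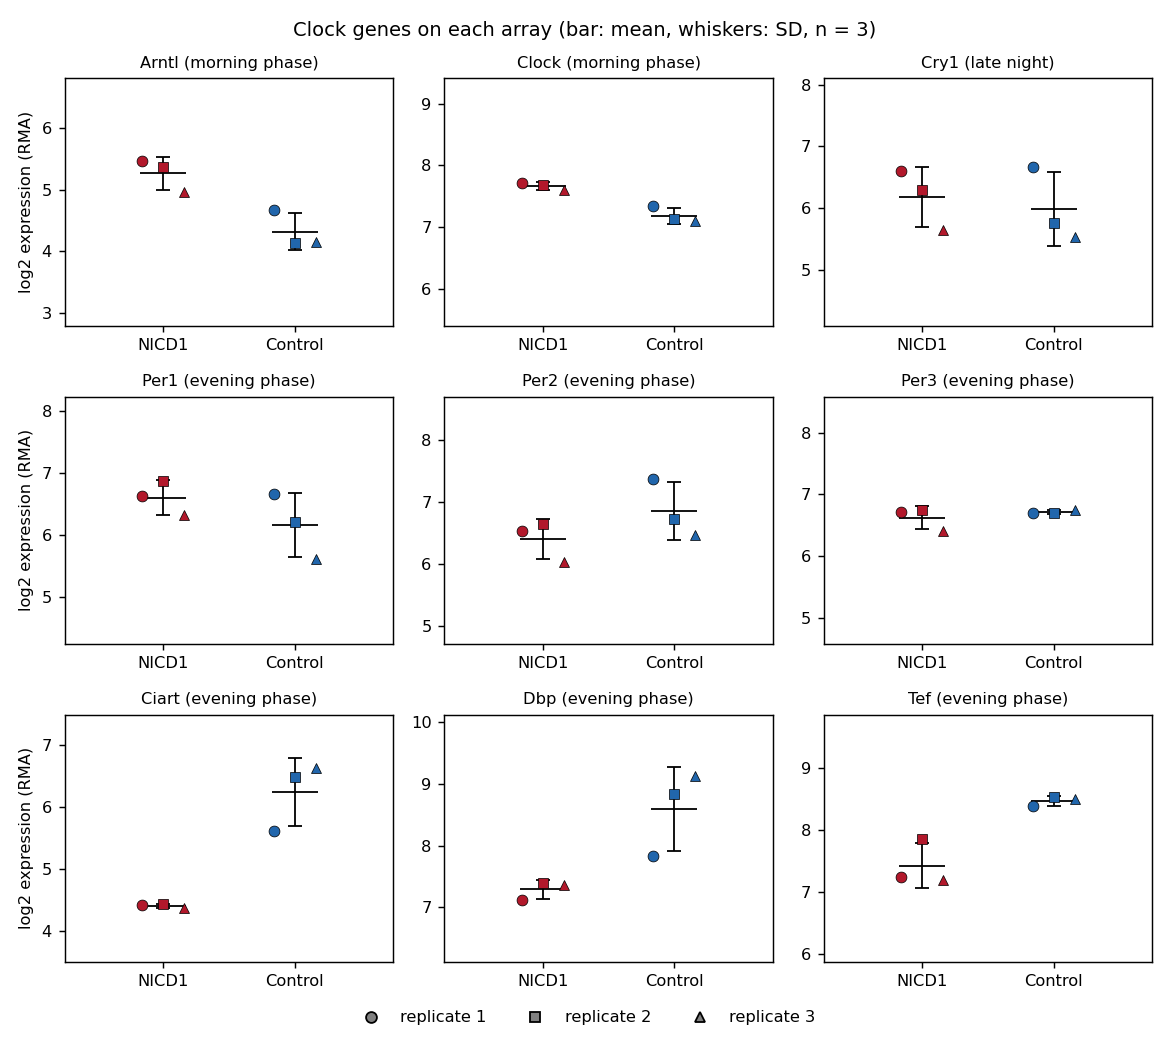
Log2 expression (RMA, vertical axes, each spanning the same range) of the 9 measured clock genes on the 3 NICD1 (red, left) and 3 control arrays (blue, right). Symbols mark the replicate number, bars the mean and whiskers the SD. Arntl and Clock lie higher on every NICD1 array, Ciart, Dbp and Tef lower, and in the other 4 genes the groups overlap.

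Arntl (probe set 10556463), which encodes the transcription factor BMAL1 without which the clock stops, was at 5.46, 5.37 and 4.97 in NICD1 replicates 1 to 3, against 4.67, 4.14 and 4.16 in control replicates 1 to 3. Every NICD1 array lay above every control array, by a gap of 0.30 log2 at the closest. The difference was 0.95 log2 (SE 0.18, adjusted p = 0.00268 by limma), a 1.93-fold higher level. Without control replicate 1, the highest of the controls, it was 1.12 log2. The control values lay under the median of their arrays (5.26 to 5.29), where RMA compresses differences.

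Clock (probe set 10530733), which encodes the partner of BMAL1, was at 7.72, 7.68 and 7.60 in NICD1 arrays, against 7.34, 7.13 and 7.09 in control arrays. The groups did not overlap, and the NICD1 arrays were tightly placed (SD 0.059). The difference of 0.48 log2 (SE 0.11, adjusted p = 0.00636 by limma) corresponds to a 1.40-fold higher level.

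Ciart (probe set 10373452), also called Chrono, encodes a repressor of the BMAL1 and CLOCK pair. It was at 4.42, 4.43 and 4.36 in NICD1 arrays, against 5.62, 6.49 and 6.63 in control arrays. Ciart differed most among the members. The NICD1 values lay within a narrow range under the array medians (5.38 to 5.41), and without detection calls it was not tested whether the gene was detected there. The difference was -1.85 log2 (SE 0.23, adjusted p = 0.000227 by limma), a 3.59-fold lower level that is understated if the NICD1 values lie at the floor. A fall as large or larger was measured for 1.89% of all genes. A second Ciart probe set gave 3.91, 4.35 and 4.40 in NICD1, against 5.17, 6.69 and 6.11 in controls, a difference of -1.77 log2.

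Dbp (probe set 10553092), an output factor whose transcript swings widely over the day in most tissues, was at 7.11, 7.39 and 7.37 in NICD1 arrays, against 7.83, 8.84 and 9.13 in control arrays. The SD was 0.15 in NICD1 and 0.68 in controls, where replicate 1 lay 1.15 log2 under the mean of the other 2, and the groups did not overlap. The difference was -1.31 log2 (SE 0.28, adjusted p = 0.00571 by limma), a 2.48-fold lower level. It was -1.69 log2 without control replicate 1 and between -1.69 and -1.05 log2 with any 1 array left out.

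Tef (probe set 10425601), a close relative of Dbp, was at 7.23, 7.85 and 7.20 in NICD1 arrays, against 8.39, 8.54 and 8.50 in control arrays. Here control replicate 1 lay only 0.13 log2 under the mean of the other controls, and the SD was 0.37 in NICD1 and 0.080 in controls, without overlap of the groups. The difference was -1.05 log2 (SE 0.17, adjusted p = 0.00112 by limma), a 2.07-fold lower level.

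The Period genes, whose proteins repress BMAL1 and CLOCK and some of which also answer acutely to hormones and light, did not pass. Per1 was at 6.63, 6.86 and 6.31 in NICD1 arrays, against 6.65, 6.20 and 5.61 in control arrays. Its difference of 0.45 log2 (SE 0.24, adjusted p = 0.218 by limma) did not pass, and it has the opposite sign to that of the called evening phase genes. Without control replicate 1, the highest of the controls, it was 0.70 log2 and passed as higher (adjusted p = 0.0445 by limma), and over all alternatives its adjusted p ran from 0.0445 to 0.628. Per2 was at 6.54, 6.64 and 6.04 in NICD1 arrays, against 7.38, 6.73 and 6.47 in control arrays. Its difference of -0.45 log2 (SE 0.24, adjusted p = 0.194 by limma) did not pass, and it was -0.19 log2 without control replicate 1 and -0.27 log2 without NICD1 replicate 3. Per3 was at 6.71, 6.74 and 6.41 in NICD1 arrays, against 6.69, 6.70 and 6.75 in control arrays. Its difference of -0.094 log2 (SE 0.11, adjusted p = 0.621 by limma) was smaller than the SD of the NICD1 arrays (0.18), and it was 0.0098 log2 without NICD1 replicate 3.

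Cry1, a strong repressor of the loop that peaks in the late night, was at 6.61, 6.29 and 5.64 in NICD1 arrays, against 6.67, 5.77 and 5.53 in control arrays. In both groups the arrays were spread over about a full log2 unit. The difference of 0.19 log2 (SE 0.31, adjusted p = 0.722 by limma) did not pass. Without control replicate 1 it was 0.53 log2 and without NICD1 replicate 3 0.46 log2, and it turned negative when NICD1 replicate 1 or control replicate 3 was left out.

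The spread between littermates differed among the members. In controls the SD of Cry1, Per1, Per2, Ciart and Dbp lay between 0.47 and 0.68 log2. It was wider than that of at least 99.05% of genes of similar mean level over all 6 arrays. These members were named because their SDs were the widest in controls. In NICD1 the share of genes of similar mean level with an SD as narrow or narrower was lower for each of them. It was 97.09% for Cry1, 91.47% for Per2, 84.55% for Per1 and 62.19% for Dbp. For Ciart, with an SD of 0.035 log2, it was 3.06%. The NICD1 values of Ciart lay under its mean over all 6 arrays (5.33), so its comparison genes were brighter than these values. Per3 in controls was narrow (SD 0.032). The other members went both ways. The share was lower in NICD1 for Arntl (78.89%, against 92.48% in controls) and Clock (13.29%, against 60.58%). It was higher in NICD1 for Tef (91.42%, against 38.16% in controls) and Per3 (66.43%, against 5.87%). Some genes that respond to glucocorticoid hormone or handling were also set apart in control replicate 1. It was the array left out of the closest pair of controls for all 4 genes of the glucocorticoid list. In the handling list this held for 3 of 6 genes, against 40.6% of all genes. It did not hold for Egr1 (5.07, 5.19 and 4.49 in control replicates 1 to 3), Ier2 (5.35, 5.04 and 5.38) and Junb (4.97, 4.91 and 4.77). Zbtb16 was at 6.80, 7.24 and 6.20 in NICD1 arrays, against 7.87, 5.22 and 5.58 in control replicates 1 to 3. The salt-regulating kinase Sgk1, a gene of neither list, was at 5.68, 5.93 and 5.01 in NICD1, against 7.83, 5.88 and 5.77 in controls. The phosphatase Dusp1 was at 7.65, 8.15 and 7.20 in NICD1, against 9.10, 7.74 and 7.49 in controls. In all 3 of these genes control replicate 1 held the highest value of the 6 arrays. Among the other genes of the glucocorticoid and handling lists this held for Tsc22d3 and Klf9. It did not hold for Fkbp5, Fos, Atf3, Egr1, Ier2 and Junb. Of the 4 genes of the glucocorticoid list, Klf9 was lower in NICD1 (-0.65 log2, adjusted p = 0.0135 by limma) and Fkbp5 (0.12), Zbtb16 (0.53) and Tsc22d3 (-0.49) did not pass. Without control replicate 1 Klf9 no longer passed (-0.57 log2), as under quantile normalization (-0.44), Zbtb16 passed as higher (1.35 log2, adjusted p = 0.00765 by limma), and Fkbp5 and Tsc22d3 were at 0.36 and -0.061 log2. Of the 6 genes of the handling and stress list, Egr1, Atf3, Ier2 and Junb were higher in NICD1, with and without control replicate 1, and Fos (0.46) and Dusp1 (-0.44) did not pass. Without that array Fos passed as higher (0.68 log2, adjusted p = 0.0226 by limma) and the difference of Dusp1 was 0.053 log2. The part of these responses in the clock gene values was not tested.

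**Figure D2:**
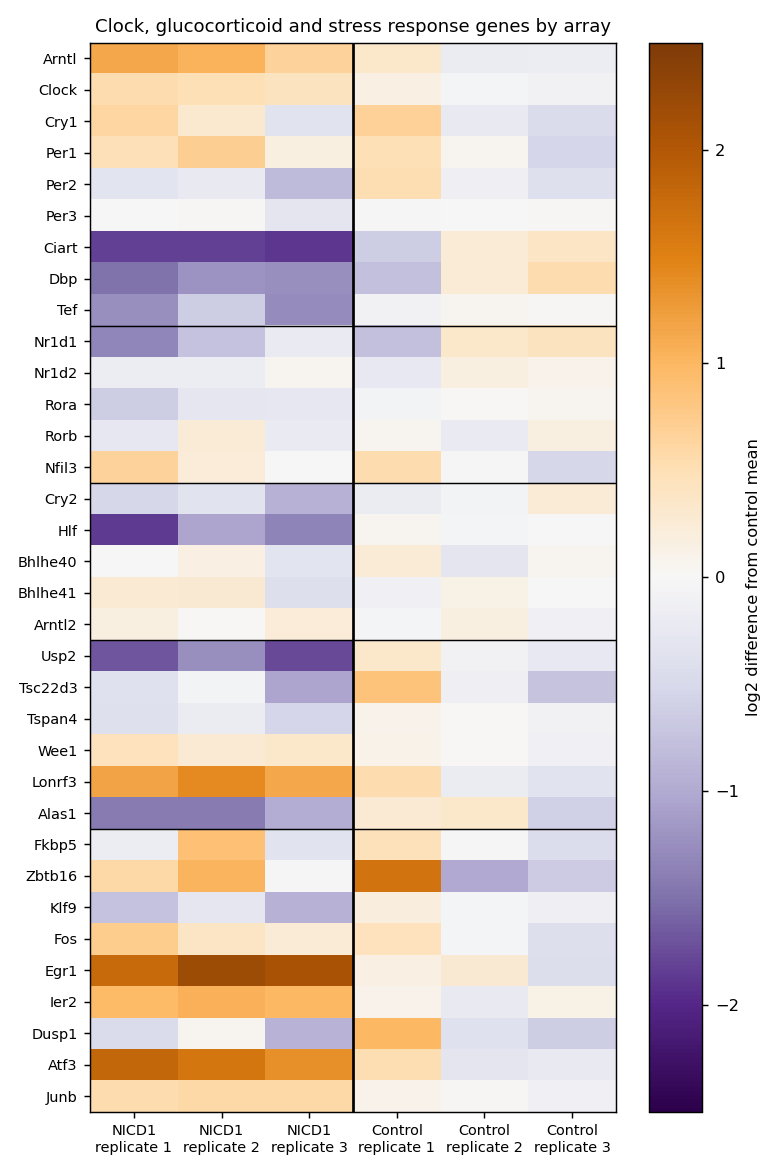
Log2 difference of each array from the control mean (colour scale, orange higher, purple lower) for the 9 clock genes (top block) and, below, ROR-element factors, further feedback and PAR bZIP factors, common clock outputs, and glucocorticoid and handling response genes. NICD1 arrays are on the left. Ciart, Dbp, Tef, Hlf and Usp2 are low on all 3 NICD1 arrays, and control replicate 1 differs from the other controls in Cry1, Ciart, Dbp, Nr1d1 and Zbtb16.

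Array by array, the means of the 2 sets of phase genes were displaced in opposite directions in NICD1. Not every gene followed its set: Per1 lay above the control mean on every NICD1 array (0.47, 0.71 and 0.16 log2). Per3 was at -0.0079, 0.028 and -0.30 log2 from the control mean on these arrays, and Per2 at -0.32, -0.22 and -0.82 log2. Of the evening phase genes only Ciart, Dbp and Tef were called. Relative to the control mean, the morning phase genes averaged 0.84, 0.77 and 0.53 log2 in NICD1 replicates 1 to 3, against 0.25, -0.12 and -0.13 log2 in control replicates 1 to 3. The evening phase genes averaged -0.74, -0.52 and -0.89 log2 in NICD1, against -0.082, 0.076 and 0.0063 log2 in controls. Evening minus morning was therefore -1.57, -1.29 and -1.42 log2 in NICD1 and -0.33, 0.19 and 0.14 log2 in controls. All 3 NICD1 arrays lay below all 3 control arrays in this measure, which is a description of genes already tested one by one and carries no test of its own. Control replicate 1 lay nearest to NICD1 of the controls, and it was also the nearest control in each of the 5 called members (45.4% of all called genes). Scaling of the arrays cancels in this difference. Without Per1 and Per2, which respond to more than the clock, it was -1.98, -1.68 and -1.71 log2 in NICD1 and -0.62, 0.25 and 0.37 log2 in controls. Neither gene was called and Per1 differed in the opposite direction, so leaving them out had to widen the measure in NICD1. The hour of collection is not given for any array. Its part in the displacement of the phase genes could therefore not be tested, nor told apart from that of the genotype.

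**Figure D3:**
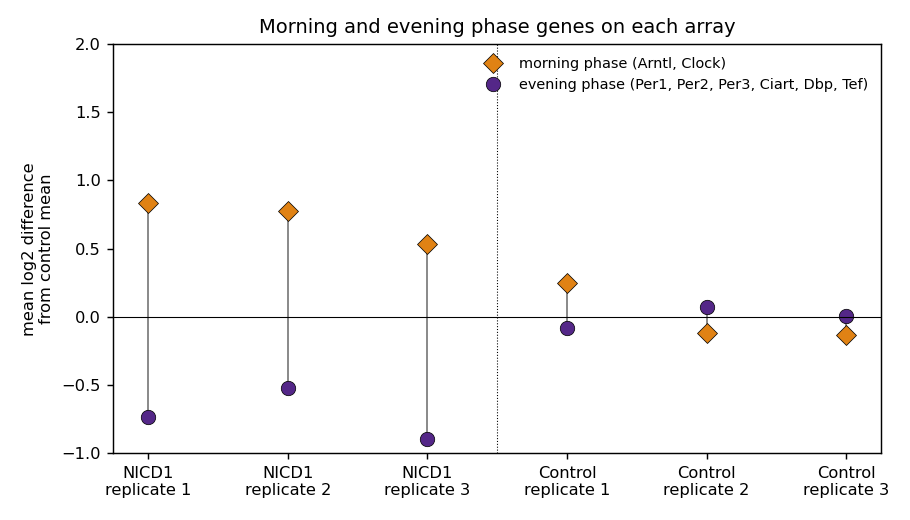
Mean log2 difference from the control mean (vertical axis) of the morning phase genes (diamonds) and the evening phase genes (circles) on each array, with a grey line joining the 2 means of an array. In the 3 NICD1 arrays the morning mean lies between 0.53 and 0.84 and the evening mean between -0.89 and -0.52. Control replicate 1 shows a narrower gap of the same sign.

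The wider clock was described with 35 further genes, of which 31 were measured and the others were not analysed here. 6 of the 31 were higher and 12 lower in NICD1, or 58.1% called, against 32.7% of all genes (17.8% higher and 14.9% lower). Their median difference was -0.33 log2. The ROR-element factors listed were REV-ERB and ROR receptors, which act on Arntl through sites such as the one shown above, and Nfil3. They mostly did not pass. The activator Rora was lower, at 6.78, 7.13 and 7.15 in NICD1 arrays and 7.35, 7.43 and 7.48 in control arrays (-0.40 log2, adjusted p = 0.0327 by limma). That call was lost when any 1 control array or NICD1 replicate 1 was left out (-0.46 to -0.28 log2 over all arrays, -0.43 without control replicate 1) and under quantile normalization (-0.36). The repressor Nr1d1 (REV-ERB alpha) was at 6.71, 7.28 and 7.83 in NICD1, against 7.27, 8.37 and 8.46 in controls. Its difference of -0.76 log2 (adjusted p = 0.134 by limma) did not pass, but it was -1.14 log2 and passed without control replicate 1 (adjusted p = 0.0175 by limma). It also passed without NICD1 replicate 3 (-1.04 log2) and with array weights (-0.90 log2). Over the alternatives its adjusted p ran from 0.00429 to 0.373. Nr1d2 (-0.089 log2), Rorb (-0.076) and the repressor Nfil3 (0.30), which competes with the PAR bZIP factors for D-boxes, did not pass. Without control replicate 1 Nr1d2 was at -0.21 log2 and Nfil3 at 0.57 log2.

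Hlf, the third PAR bZIP factor beside Dbp and Tef, was at 6.56, 7.39 and 7.09 in NICD1 arrays, against 8.50, 8.37 and 8.41 in control arrays. The groups were far apart, and the difference was -1.41 log2 (SE 0.19, adjusted p = 0.000336 by limma), a 2.66-fold lower level. All 3 PAR bZIP genes were therefore lower in NICD1. The repressor Cry2 was lower too (-0.59 log2, adjusted p = 0.0233 by limma), but not past the threshold without NICD1 replicate 3 (-0.42), control replicate 2 (-0.62) or control replicate 3 (-0.47). The E-box repressors Bhlhe40 (-0.063 log2) and Bhlhe41 (0.051), and Arntl2 (0.13), a relative of Arntl, did not pass, and without control replicate 1 Bhlhe40 was at 0.059 and Bhlhe41 at -0.0061 log2.

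Among the enzymes that set the stability of clock proteins, 3 of 7 measured were higher and 2 lower. This is 71.4% called, against 32.7% of all genes. The casein kinases Csnk1e and Csnk1d, which phosphorylate PER proteins, were higher by 1.35 and 0.76 log2. Csnk1e was at 7.70, 7.57 and 7.35 in NICD1 arrays and 6.38, 5.92 and 6.26 in control arrays (adjusted p = 8.88e-05 by limma). The kinase Gsk3b was higher by 0.43 log2. Lower were Fbxl21 (-1.20 log2), an F-box protein that acts on CRY proteins, and Btrc (-0.66), which marks phosphorylated PER for breakdown. Csnk2a1 (-0.11) and Fbxw11 (-0.27, adjusted p = 0.0570 by limma) did not pass. Fbxw11 passed as lower after centring (-0.39), with array weights (-0.30), with trended robust variance and without the dimmest 40% of genes (-0.27 in both), and Csnk2a1 passed as higher under quantile normalization (0.29).

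Genes that cycle under the clock in many tissues moved both ways, with 2 of 6 measured higher and 3 lower. Together 83.3% were called, against 32.7% of all genes. The deubiquitinase Usp2 was at 6.88, 7.33 and 6.81 in NICD1 arrays, against 8.91, 8.49 and 8.32 in control arrays. This is a difference of -1.57 log2 (SE 0.18, adjusted p = 0.000150 by limma), or a 2.96-fold lower level, and the groups did not overlap. Alas1, which starts haem synthesis, and the tetraspanin Tspan4 were lower (-1.27 and -0.37 log2), while Lonrf3 and the cell cycle kinase Wee1 were higher by 1.25 and 0.35 log2. The calls of Tspan4 and Wee1 were near the threshold (adjusted p = 0.0372 and 0.0298 by limma). Tspan4 did not pass when any array but NICD1 replicate 2 was left out (-0.46 to -0.28 log2, and -0.33 without control replicate 1), under quantile normalization or with array weights (-0.29 log2 in both). Wee1 did not pass after centring (0.23), with the replicate block (0.35 log2, adjusted p = 0.0530 by limma) or without NICD1 replicate 1 or 3 or control replicate 2 or 3 (0.29 to 0.41 log2 over all arrays). Tsc22d3, a glucocorticoid target, did not pass, and Por was not analysed here.

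Of 8 kidney transport and signalling genes with known links to the clock, 1 was higher and 4 lower. Together 62.5% were called, against 32.7% of all genes. The sodium-proton exchanger Slc9a3 and the sodium-chloride cotransporter Slc12a3 were lower (-3.26 and -2.38 log2), as were the water channel Aqp2 (-1.05) and the kinase Wnk1 (-0.57). The endothelin gene Edn1 was at 7.40, 7.41 and 7.28 in NICD1 arrays, against 4.24, 4.14 and 4.60 in control arrays, a difference of 3.03 log2 (SE 0.13, adjusted p = 6.99e-07 by limma). Scnn1a (0.15), Sgk1 (-0.96) and Avpr2 (-0.33) did not pass, and without control replicate 1 Sgk1 was at -0.29 and Scnn1a at 0.29 log2. Slc9a3 and Slc12a3 belong to the proximal and distal tubule, whose other markers were lower as well. Without control replicate 1 Aqp2 no longer passed (-0.93 log2), and Wnk1 no longer passed under quantile normalization (-0.29 log2). Scnn1a passed as higher without NICD1 replicate 3 (0.56 log2) and Avpr2 as lower without NICD1 replicate 1 (-0.57 log2).

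**Figure D4:**
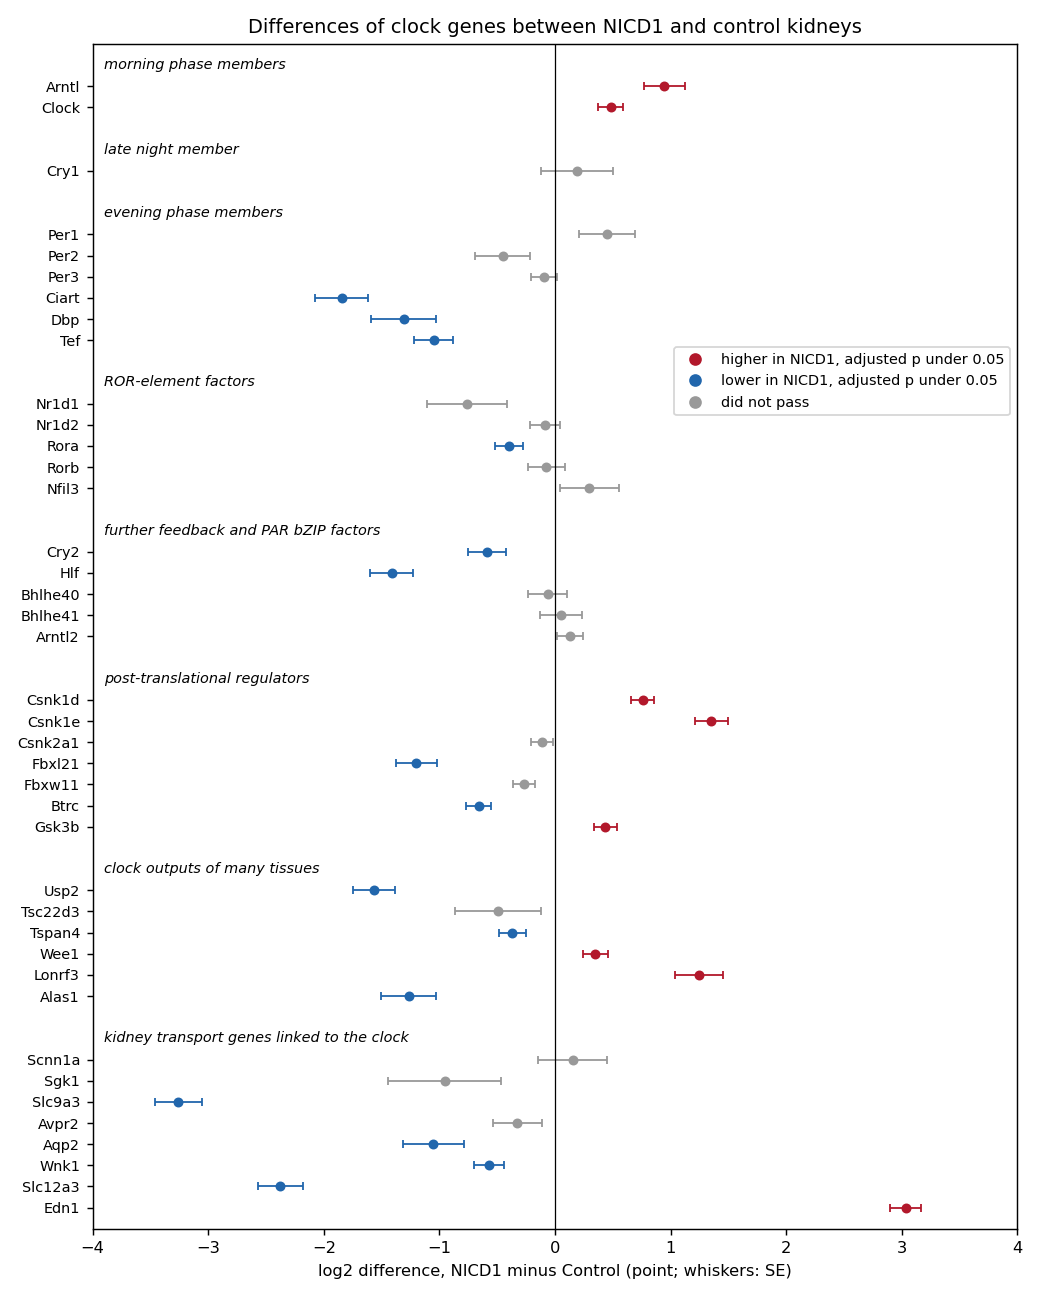
Log2 difference, NICD1 minus control (horizontal axis, whiskers SE), for the 9 measured clock genes and 31 further clock genes, grouped by role. Red points were higher and blue points lower at an adjusted p under 0.05, and grey points did not pass. Ciart, Dbp, Tef, Hlf and Usp2 lie between -1.85 and -1.05, Arntl and Clock at 0.95 and 0.48.

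The genes whose values ran closest to Dbp were found by the root-mean-square distance between values centred on the mean of the 6 arrays, a measure dominated by the difference between groups. They were Igfbp1 (0.103 log2), which encodes a binding protein of insulin-like growth factors, the nuclear receptor gene Hnf4g (0.207) and the uridine phosphorylase gene Upp2 (0.215). Igfbp1 was at 4.33, 4.46 and 4.44 in NICD1 arrays, against 4.91, 5.70 and 6.16 in control arrays, so control replicate 1 was its lowest control as in Dbp. Closest to Arntl were Lyz1 (0.079), Xdh (0.084), which encodes xanthine dehydrogenase, and Mical2 (0.0842). Lyz1 has a near-identical neighbour, Lyz2, and their signals may be shared. With 19937 genes and 6 arrays such neighbours are found for any gene.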

How the data were processed

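Per the labels' protocols, TRIzol RNA was labelled with biotin, hybridised to Affymetrix arrays, and the raw data were normalized with the RMA16 algorithm of GeneSpring. The values deposited by the authors are on a log2 scale, 1.40 to 13.67. RMA forces arrays to a shared distribution and compresses differences of dim genes. The GeneSpring version, scan batches and detection calls are not given in the sources used here.

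Of 34760 probe sets, 6573 in the control range were left out. 21640 others carried 1 symbol, 1321 several and 5226 none. The 19937 genes were fitted with limma 3.58.1 in R 4.3.3 (lmFit and eBayes, two-sided, NICD1 minus control, all 6 arrays, Benjamini-Hochberg adjustment, threshold 0.05). In a test on simulated data of 19937 genes, the fit found 20.3% of 64 genes given a 0.5 log2 change, 78.6% of 70 given 1 log2 and 97.0% of 66 given 2 log2. Named were all members, all genes of the clock lists, Notch1, and the 3 genes nearest to Dbp and to Arntl. In lists of cell type, glucocorticoid and handling markers, genes were named after their values were seen. Members and lists were chosen with earlier results of these data known. The number of arrays limits the precision. Alternatives were the mean over probe sets, quantile normalization, centring, a filter on the dimmest 40% of genes, trended robust variance, array weights, a threshold of 0.01, the replicate block, and leaving out each array.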

Additional observations from a re-analysis of the deposited data

How the results depend on the processing

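All 5 calls among the members (Arntl and Clock higher, Ciart, Dbp and Tef lower) kept their direction and stayed past the threshold under every alternative run, with adjusted p up to 0.0322 for Clock and 0.0266 for Dbp. With any 1 array left out, Per1 ranged from 0.17 to 0.70 log2 and passed without control replicate 1. Differences that crossed 0 on leaving out arrays were those of Cry1 (-0.039 to 0.53), Per3 (-0.16 to 0.0098), Rorb (-0.24 to 0.022), Bhlhe40 (-0.21 to 0.071), Bhlhe41 (-0.063 to 0.27), Scnn1a (-0.063 to 0.56), Fkbp5 (-0.26 to 0.36) and Dusp1 (-0.76 to 0.053), none of them called in the fit of all 6 arrays. The sign also turned for Nr1d2 (0.14) and Csnk2a1 (0.29, called as higher) under quantile normalization, for Rorb (0.075) and Bhlhe40 (0.083) with array weights, and for Bhlhe41 (-0.072) after centring. The cause was not tested. Without Per1 and Per2, evening minus morning moved to -1.98, -1.68 and -1.71 log2 in NICD1 replicates 1 to 3 and to -0.62 log2 in control replicate 1. Centring moved the median of all genes from 0.015 to -0.11 log2 and the share of calls that were higher to 39.4%, against 54.4% without it.

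Whether the replicate numbers pair the samples is not stated, and correlations of arrays cannot decide it. Over all genes, the deviations of same-numbered NICD1 and control arrays from their group means correlated at -0.069, -0.012 and -0.070 for numbers 1 to 3. Over the 9 members these correlations were 0.717, -0.032 and 0.855, and over the other 31 clock genes 0.434, -0.442 and 0.368. Numbers 1 and 3 thus deviated together in clock genes and number 2 did not. Arrays of different number correlated at -0.013 to 0.072 over all genes. They were not compared over the clock genes, so the values over clock genes cannot decide whether the numbers pair samples. A replicate block gave 3219 genes higher and 2762 lower, with 2 members higher and 3 lower as before (Arntl 0.95 log2, adjusted p = 0.0011, and Ciart -1.85 log2, adjusted p = 0.000289, by limma), and among the other clock, glucocorticoid and handling genes Nr1d1 (-0.76 log2, adjusted p = 0.00429) and Fos (0.46 log2, adjusted p = 0.0249) then passed and Wee1 did not (0.35 log2, adjusted p = 0.0530). With 3 arrays in a group, smaller differences may be missed. Genes changed by 0.5 log2 were mostly missed on simulated data, but far fewer genes were changed there than were called here. That share therefore does not carry over to these calls. Signal over background was not given, which limits what can be said of Ciart in NICD1 and Arntl in controls. The same limit holds for other low values, such as Fbxl21 in NICD1 (3.79 to 4.30 log2) and Edn1 in controls (4.14 to 4.60 log2).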
